A study of Homo sapiens with 44 samples.

Results

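The translocase of the outer mitochondrial membrane (TOM) is described here through 8 human genes: TOMM5, TOMM6, TOMM7, TOMM20, TOMM22, TOMM34, TOMM40 and TOMM70. They were chosen by gene symbol from textbook membership of the import machinery, and the set was taken up because TOMM5 was among the larger falls after knockdown of JMJD6 in CHP134 cells in these same arrays. The fall of TOMM5 in CHP134 cells is therefore given as a description with no test. Of 17687 gene symbols on the array, 7 of the 8 TOM genes had a named transcript cluster, the unit into which the array groups its probes. TOMM6 had none and is not analysed here.

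Gene expression came from Clariom S Human arrays (Affymetrix) of 2 neuroblastoma cell lines, CHP134, in which the MYCN oncogene is amplified, and SK-N-AS. All cells carried a lentiviral construct with green fluorescent protein and a doxycycline (DOX)-inducible short hairpin RNA (shRNA), and cells high in the fluorescent protein were sorted, so each line is a sorted population that was not described as 1 clone. The hairpin was either a control shRNA (labelled SCR) or one against JMJD6, a 2-oxoglutarate-dependent oxygenase, and cells received 2 µg/ml DOX or vehicle for 40 h. In CHP134 each treatment had 6 control arrays (repeats A to F), 4 JMJD6 shRNA-1 arrays (repeats A, B, E and F) and 4 JMJD6 shRNA-2 arrays (repeats A, B, C and D), and in SK-N-AS each had 3 control and 3 JMJD6 shRNA-2 arrays (repeats B and C and 1 without a letter). The hairpins' repeat letters follow the sample titles. The description of the series pairs the letters with the hairpins the other way round, and if that were right all CHP134 values of shRNA-1 and shRNA-2 would change places. The study describes the repeats as repeated experiments, without saying whether each was a separate culture, so p-values measure the spread between these arrays, which may be partly technical.

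Most mitochondrial proteins are made in the cytosol and enter the organelle through the TOM complex. TOMM40 forms the pore, TOMM22 is a central receptor that holds the complex together, and the small subunits TOMM5, TOMM6 and TOMM7 sit around the pore and affect its assembly and stability. TOMM20 and TOMM70 are the receptors that meet precursors first, TOMM20 those with a cleavable presequence and TOMM70 mainly carrier proteins brought by chaperones. TOMM34 is a cytosolic cochaperone of HSP70 and HSP90 that carries the family's name but is not a subunit of the pore.

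Values are log2 intensities, so a difference of 1 is a doubling of signal, and levels of different genes are not set against each other because their probes differ. The 40 distinct arrays had median log2 intensities between 6.01 and 6.16, and between 72.3% and 81.9% of their clusters lay above the 95th percentile of that array's negative control probe sets. Every TOM gene lay above that percentile on all arrays, with a smallest margin of 3.07 log2 units for TOMM5 in CHP134. Of the adrenergic neuroblastoma markers fixed for the check of the cell lines, 7 of 7 measured were above that background in both lines, and of the mesenchymal markers 7 of 8 were in CHP134 and 8 of 8 in SK-N-AS. Markers of other cell types passed as well, in CHP134 and SK-N-AS in turn: fibroblast 4 of 5 and 5 of 5, blood and immune 3 of 5 and 4 of 5. Endothelial markers passed in 2 of 4 and 3 of 4, epithelial in 1 of 4 and 2 of 4, and Schwann cell in 1 of 3 in both lines. These counts therefore do not identify the lines. The log2 of the summed signal, as group means, was 11.38 to 11.81 in CHP134 and 10.53 to 10.78 in SK-N-AS for adrenergic markers. For mesenchymal markers it was 10.58 to 10.85 and 12.64 to 12.70. Fibroblast, blood and immune, and epithelial sums were also higher in SK-N-AS, Schwann cell sums were higher in CHP134 and endothelial sums overlapped. These levels were not tested between the lines. In SK-N-AS, 2 control arrays stood apart: the unlettered vehicle array and DOX array B correlated with the uninduced shRNA-2 arrays (mean r = 0.992 for each) more than with the other control arrays (mean r = 0.987 for each), and changes in that line are given with and without them.

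JMJD6, the target of both hairpins, was lower in each of the induced groups. Its change after subtraction of control cells was -0.65 (SE 0.20, adjusted p = 0.590) with shRNA-1 and -1.01 (SE 0.19, adjusted p = 0.0193) with shRNA-2 in CHP134 and -0.64 (SE 0.19, adjusted p = 0.536) in SK-N-AS, where it was -0.67 (SE 0.19, adjusted p = 0.376) without the 2 control arrays that stood apart. The main fits had no term for the repeat letter, and those of shRNA-1 and of SK-N-AS called no cluster (0% in both). JMJD6 was not examined in a fit with that term. Letter by letter in CHP134, its change after subtraction was below 0 in 4 of 4 letters with shRNA-1 (-0.82 to -0.52). With shRNA-2 it was also below 0 in 4 of 4 letters (-1.29 to -0.68). In SK-N-AS, where letters did not pair arrays, it was below 0 in 2 of 3 repeats. In CHP134 the log2 intensity of JMJD6 was 6.45, 6.74, 6.69 and 6.90 in the induced shRNA-2 arrays A to D and 7.02, 6.77, 7.08 and 7.16 in the induced shRNA-1 arrays A, B, E and F. All 20 CHP134 arrays without an induced JMJD6 hairpin lay between 7.61 and 8.16, above all 8 induced arrays. For shRNA-2 alone, the induced arrays of 1.84% of all clusters lay below these 20. The 3 induced SK-N-AS arrays (unlettered, B and C) had JMJD6 at 6.44, 6.84 and 6.63, against 7.14 to 7.48 in the other 9. In that line the induced arrays of 2.76% of all clusters lay below the other 9.

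TOMM5, a small subunit of the pore complex encoded on chromosome 9, was lower after induction of either hairpin in CHP134, with the larger difference for shRNA-2. Under vehicle its log2 intensity in control cells was 10.15 at the lowest, 10.25 at the median and 10.45 at the highest of 6 arrays, and under DOX it was 10.11, 10.31 and 10.51. In shRNA-2 cells vehicle arrays A to D read 10.01, 10.05, 10.39 and 10.28, and DOX arrays read 7.55, 8.34, 8.93 and 8.86. The 4 induced shRNA-2 arrays thus lay below all 20 arrays without an induced JMJD6 hairpin, a position that 1.84% of all clusters shared. In shRNA-1 cells vehicle arrays A, B, E and F read 10.05, 10.04, 10.55 and 10.75, and DOX arrays read 9.29, 9.13, 10.04 and 10.07. The induced shRNA-1 arrays A and B were below every array without an induced hairpin, while E and F overlapped with the lowest of these, which were themselves vehicle arrays of the hairpin lines. Each induced array was below the vehicle array of its own letter, with differences from -0.91 to -0.50 in shRNA-1 and from -2.46 to -1.41 in shRNA-2, while in control cells the same difference ran from -0.14 to 0.17 over 6 letters.

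**Figure D1:**
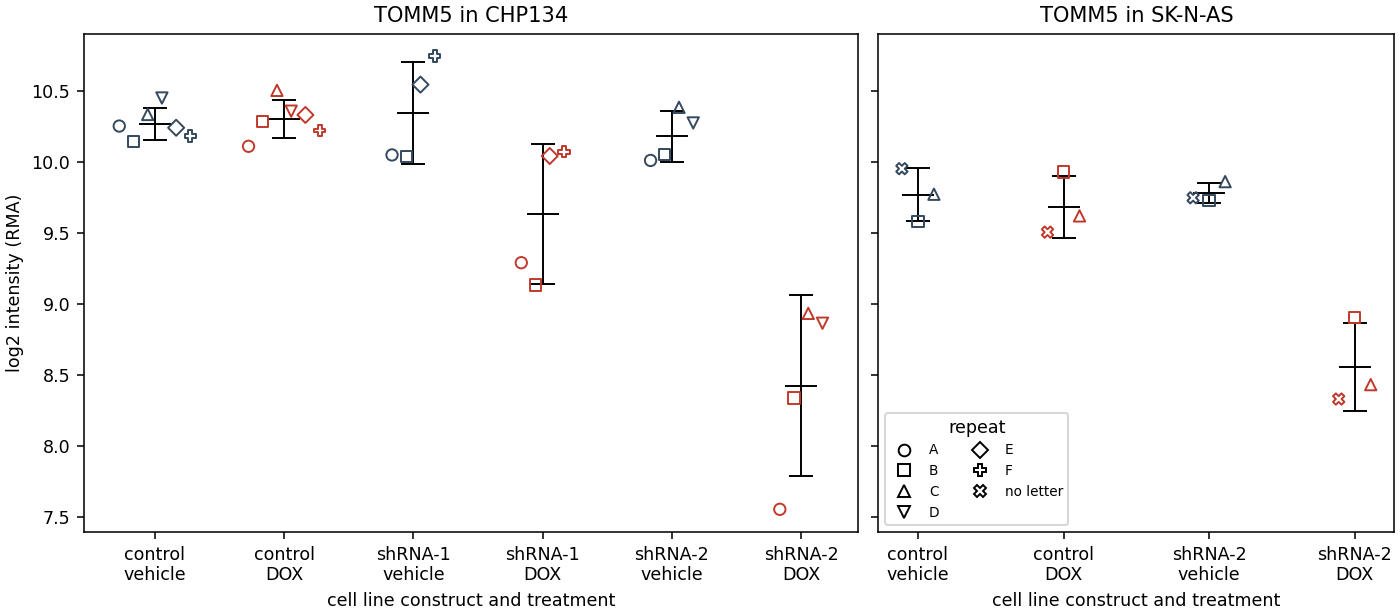
TOMM5 log2 intensity on each array (vertical axis) by cell line, hairpin and treatment, with marker shape for the repeat and red for DOX; horizontal ticks and bars are the group mean and SD. The induced shRNA-2 arrays of CHP134 (7.55 to 8.93) and those of SK-N-AS (8.33 to 8.91) lie below all arrays of the same line without an induced JMJD6 hairpin.

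In numbers that subtract the change in control cells, TOMM5 changed by -0.74 (SE 0.29, 1.67-fold lower) with shRNA-1, by -1.78 (SE 0.31, 3.43-fold lower) with shRNA-2 and by -1.27 (SE 0.25, 2.41-fold lower) on the mean of both. These values chose the gene and carry no test. In such bulk RNA, fewer cells that express a gene and less of its RNA per cell cannot be told apart. The repeat letters divided into sets: with shRNA-2 the change was -2.09 over letters A and B and -1.47 over C and D, and with shRNA-1 it was -0.83 over A and B and -0.65 over E and F. The order of the 6 CHP134 group means ran from uninduced shRNA-1 (10.35) through both control groups and uninduced shRNA-2 (10.18) to induced shRNA-1 (9.63) and induced shRNA-2 (8.42), and only the last step was between neighbours whose ranges did not overlap.

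Set directly against each other in CHP134, the TOMM5 change with shRNA-2 differed from that with shRNA-1 by -1.05 log2 units (SE 0.32), a description of the same values. JMJD6 itself differed by -0.33 (SE 0.19, adjusted p = 1.00) in the same direction. Only 2 of 21448 clusters were called in this comparison (0.00932%), 70 with the block, and none of the other 6 measured TOM genes was among either. TOMM7 had the largest difference of the other members, 0.47 log2 units higher with shRNA-2 (SE 0.22, adjusted p = 0.963).

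In SK-N-AS cells TOMM5 read 9.75, 9.73 and 9.86 in the vehicle shRNA-2 arrays (unlettered, B and C) and 8.33, 8.91 and 8.43 with DOX. Control cells read 9.95, 9.58 and 9.77 with vehicle and 9.51, 9.93 and 9.62 with DOX. The 3 induced arrays lay below the other 9, as did those of 2.76% of all clusters. The change after subtraction of control cells was -1.14 (SE 0.23, 2.21-fold lower, 95% interval -1.64 to -0.64), with limma adjusted p = 0.234 over all clusters and an unadjusted p of 2.68e-04 from the same fit. It was -1.11 (adjusted p = 0.211) without the 2 control arrays that stood apart. No cluster was called in this line (0%), 1215 had an unadjusted p under 0.05, and 22 were called with array weights, TOMM5 among them (-1.20, adjusted p = 0.0499). Over all omissions of 1 array the TOMM5 change ran from -1.32 to -1.02 and its adjusted p from 0.0350 to 0.709. The lowest values came without induced shRNA-2 array B, the one with the highest TOMM5 of its group. Leaving out that array widens the difference by itself. TOMM5 was taken up for its fall after JMJD6 knockdown, and the genes and tests were chosen with earlier results of these data known. Its p-values and calls in this line are therefore not those of an unselected gene and are no independent support for the fall.

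A measure of array signal moved with induction most clearly in shRNA-2 cells of CHP134. The gap between positive and negative control probe sets was smaller under DOX than under vehicle in 4 of 4 letters of shRNA-2 cells, with differences from -0.20 to -0.11 log2 units, in 3 of 4 letters of shRNA-1 cells (-0.16 to 0.05) and in 3 of 6 letters of CHP134 control cells (-0.13 to 0.15). In SK-N-AS it was smaller with DOX in 3 of 3 repeats of shRNA-2 cells, with differences from -0.11 to -0.0044, and in 1 of 3 repeats of control cells (-0.17 to 0.22). The shRNA-2 range in SK-N-AS lay within that of its control cells, and letters did not pair arrays in that line. In CHP134 the shRNA-1 range was near that of control cells. The part of this gap in the lower TOMM5 values was not tested.

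None of the other 6 measured members was called in any hairpin comparison. On the mean of both hairpins in CHP134 their changes lay between -0.14 and 0.27 log2 units, 3 above 0 and 3 below, with limma adjusted p between 0.482 and 0.967, where 268 of 21448 clusters were called (1.25%), 181 of them lower (0.844%). With the repeat letter as a block 1326 clusters were called, and again none of these 6. The 95% intervals of the 6 in the main fit had -0.60 as their lowest end (TOMM34) and 0.53 as their highest (TOMM20), and changes within a gene's own interval are within the error. That of TOMM20, 0.002 to 0.53, left out 0, with a limma unadjusted p of 0.0484. An unadjusted p under 0.05 was reached by 10.3% of all clusters. In shRNA-1 cells no cluster was called (0%), 16 with the block and 1117 at an unadjusted p under 0.05, and in shRNA-2 cells 167 were (0.779%), 959 with the block. None of the 6 was called in either, with or without the block.

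**Figure D2:**
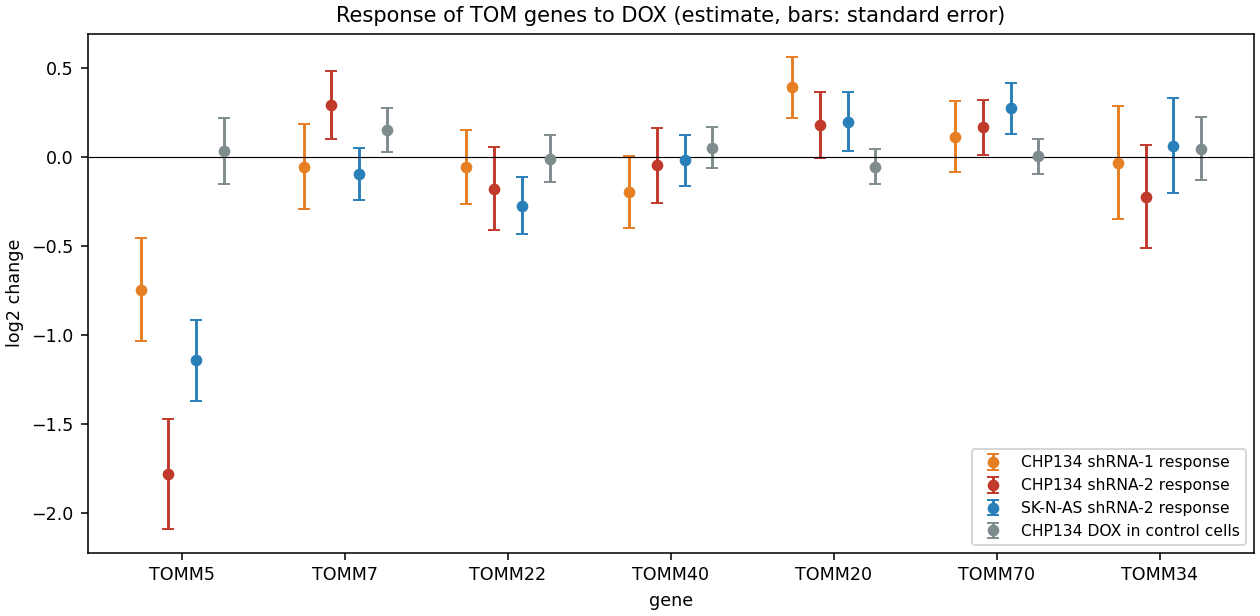
Change of each measured TOM gene under DOX in log2 units (vertical axis), with bars of 1 standard error, for shRNA-1 and shRNA-2 in CHP134 and shRNA-2 in SK-N-AS after subtraction of control cells, and for DOX alone in CHP134 control cells. TOMM5 is at -0.74, -1.78 and -1.14 in the hairpin comparisons, while the other genes lie between -0.27 and 0.39.

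Among the pore and its core partners, TOMM40, the channel itself, changed by -0.14 on the mean of both hairpins (SE 0.15, adjusted p = 0.906), by -0.19 with shRNA-1 and by -0.05 with shRNA-2. Its induced arrays overlapped with the others in both lines, and in SK-N-AS its 4 group means spanned 0.07 log2 units. TOMM22, the central receptor, changed by -0.11 in CHP134 (SE 0.17, adjusted p = 0.949), by -0.05 with shRNA-1 and by -0.18 with shRNA-2. In SK-N-AS it read 9.60, 9.45 and 9.64 in vehicle shRNA-2 arrays and 9.27, 9.24 and 9.43 with DOX. These 3 induced arrays lay below the other 9, which is true of 2.76% of clusters, yet the change of -0.27 (SE 0.16) had an adjusted p of 0.914. TOMM7, the other small subunit measured, read 9.51, 9.69, 9.96 and 9.78 in vehicle shRNA-2 arrays of CHP134 and 10.12, 10.06, 10.34 and 10.38 with DOX. It was thus higher in 4 of 4 letters, but control cells at the same letters also differed between DOX and vehicle, by 0.24, -0.09, 0.55 and 0.07, and the change after subtraction was 0.29 (SE 0.19, adjusted p = 0.684). With shRNA-1 it was -0.05 (SE 0.24), and in SK-N-AS -0.09 (SE 0.15, adjusted p = 0.991).

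For the receptors TOMM20 and TOMM70 the estimates were above 0 with each hairpin, none of them past the threshold. TOMM20 read 9.38, 9.40, 9.49 and 9.63 in the vehicle shRNA-1 arrays A, B, E and F and 9.84, 9.77, 9.95 and 9.77 with DOX. These vehicle arrays were at the low end for the line: control vehicle arrays had a median of 9.63 and reached 9.92. After subtraction of control cells the change was 0.39 with shRNA-1 (SE 0.17, 1.31-fold higher, adjusted p = 0.902), 0.18 with shRNA-2 (SE 0.19, adjusted p = 0.845), 0.27 on the mean of both (SE 0.13, adjusted p = 0.482, and 0.163 with the block) and 0.20 in SK-N-AS (SE 0.17, adjusted p = 0.970). The value moved with a single control array under DOX, repeat A at 9.27, without which the mean change was 0.20 (adjusted p = 0.682) and the shRNA-1 change 0.30.

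TOMM70, the receptor for carrier precursors, read 9.44, 9.42, 9.22 and 9.24 in vehicle shRNA-2 arrays of CHP134 and 9.61, 9.54, 9.38 and 9.54 with DOX, higher in 4 of 4 letters. In shRNA-1 cells it read 9.33, 9.30, 9.23 and 8.97 with vehicle and 9.49, 9.52, 9.25 and 8.98 with DOX, where the differences at letters A and B were larger than those at E and F. The changes after subtraction were 0.17 (SE 0.15, adjusted p = 0.817) and 0.12 (SE 0.20, adjusted p = 1.00), and 0.14 on the mean of both (SE 0.13, adjusted p = 0.867). In SK-N-AS the vehicle arrays read 9.07, 9.28 and 9.22 and the induced arrays 9.43, 9.39 and 9.30. The induced arrays lay above all 9 others, as those of 3.30% of clusters did, and the change was 0.27 (SE 0.14, adjusted p = 0.890). Without the 2 control arrays that stood apart it was 0.25 (adjusted p = 0.732).

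TOMM34, the cytosolic cochaperone, varied more with the repeat letter than with treatment in CHP134. In shRNA-1 cells letters A and B read 10.20 and 10.51 with vehicle and 10.36 and 10.41 with DOX, and letters E and F read 9.65 and 9.70 with vehicle and 9.64 and 9.70 with DOX. In shRNA-2 cells letter B was again the highest, at 10.52 with vehicle and 10.43 with DOX, and letter C the lowest, at 9.94 and 9.71. After subtraction of control cells its change was -0.22 with shRNA-2 (SE 0.29, adjusted p = 0.887), below 0 in 4 of 4 letters. With shRNA-1 it was -0.03 (SE 0.32), below 0 in 2 of 4 letters. It was -0.12 on the mean of both hairpins (SE 0.23, adjusted p = 0.967) and 0.07 in SK-N-AS (SE 0.27, adjusted p = 0.997).

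Without the 2 SK-N-AS control arrays that stood apart, the SK-N-AS changes of these genes were -0.00 for TOMM40, -0.25 for TOMM22, -0.08 for TOMM7, 0.26 for TOMM20 and 0.01 for TOMM34, with limma adjusted p between 0.726 and 0.998.

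**Figure D3:**
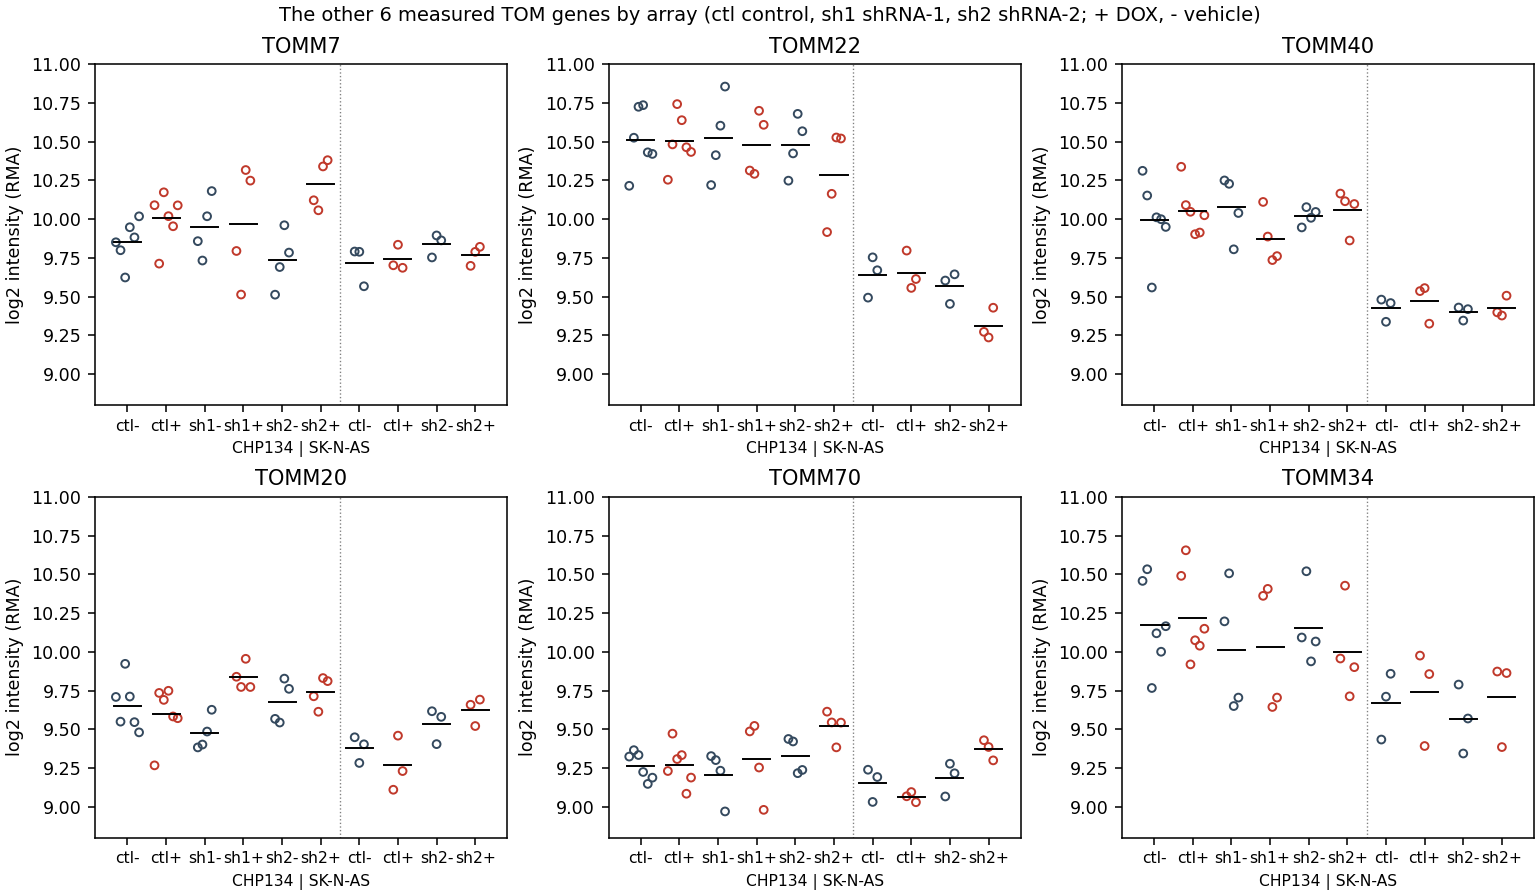
Log2 intensity (vertical axis) of the 6 other measured TOM genes on each array, by group, with CHP134 left and SK-N-AS right of the dotted line, red for DOX and a horizontal line at each group mean. Induced and other arrays overlap in CHP134 for each gene, whereas in SK-N-AS the induced arrays are below the rest for TOMM22 and above the rest for TOMM70.

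Under DOX alone the TOM genes had values near those under vehicle. In CHP134 control cells TOMM5 changed by 0.03 (SE 0.19, 95% interval -0.35 to 0.41) and the other 6 by -0.05 to 0.15, and in SK-N-AS control cells TOMM5 changed by -0.08 (SE 0.16) and the others by -0.11 to 0.07. No cluster was called in either comparison by limma (0% in both), with 210 and 685 clusters at an unadjusted p under 0.05. Before induction the TOM genes of the hairpin lines were compared with those of control cells. TOMM5 stood at 0.08 (SE 0.21) in shRNA-1 and -0.09 (SE 0.21) in shRNA-2 cells of CHP134 and at 0.01 (SE 0.16) in SK-N-AS, and the other members lay between -0.18 and 0.16. No TOM gene was called in these comparisons, in which limma called 0 clusters in both CHP134 lines (0%; 2399 and 460 at an unadjusted p under 0.05, and 169 in shRNA-1 with the block) and 1 in SK-N-AS (0.00466%). The SK-N-AS count was 1063 without the 2 control arrays that stood apart, again with 0 TOM genes. These 2 arrays were picked for their likeness to the uninduced shRNA-2 arrays. Their omission therefore widens this comparison by itself, and the higher count is no result about the line. Without those arrays TOMM5 was at -0.11 under DOX alone and at 0.10 before induction, and the other 6 lay between -0.17 and 0.13 and between -0.22 and 0.19.

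Deviations of single arrays from their group means showed which members moved together within groups. Over the 28 CHP134 arrays TOMM5 went with TOMM22 (Pearson's r = 0.85) and TOMM7 (0.69) and against TOMM70 (-0.62) and TOMM34 (-0.61), and TOMM34 went with TOMM40 (0.74). Over the 12 SK-N-AS arrays the signs were different for several pairs, with TOMM5 and TOMM22 at -0.59 and TOMM5 and TOMM70 at 0.35. The arrays of a line share a normalization, and in CHP134 arrays of the same repeat letter deviated together across all clusters, so these values are a description only.

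**Figure D4:**
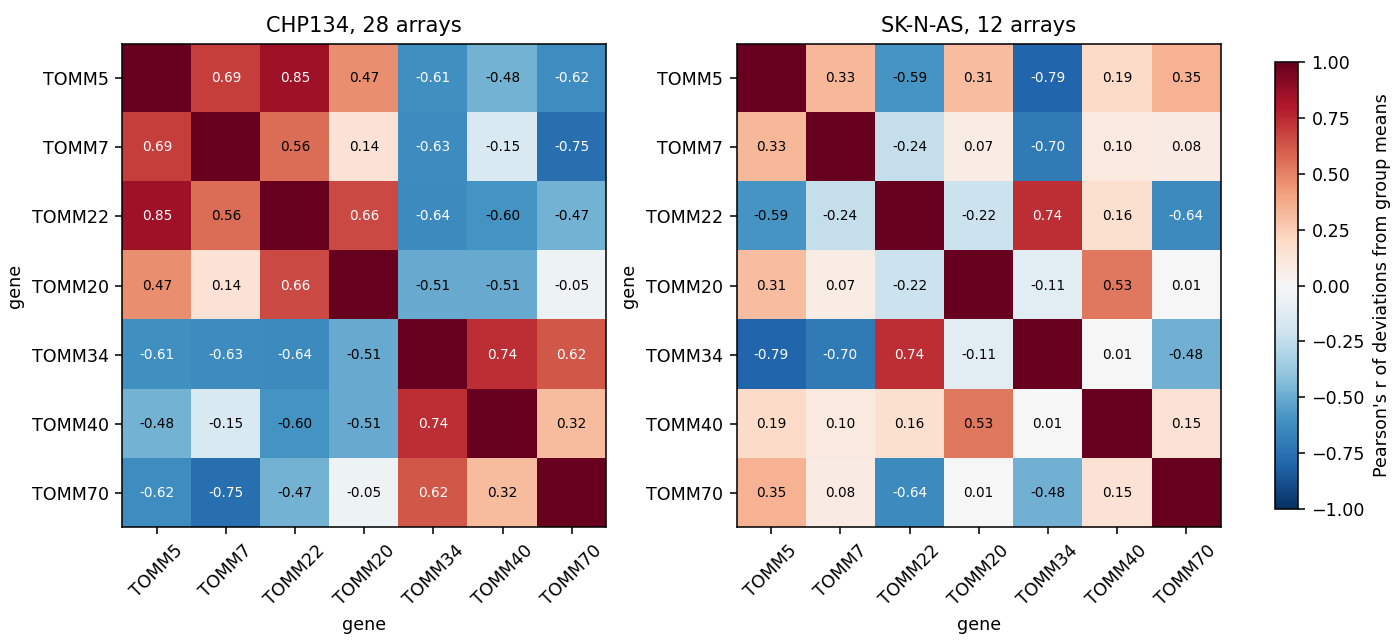
Pearson's r between TOM genes, from each array's deviation from its group mean, over 28 CHP134 arrays (left) and 12 SK-N-AS arrays (right), on a colour scale from -1 (blue) to 1 (red). In CHP134 r is above 0 among TOMM5, TOMM7, TOMM22 and TOMM20 and among TOMM34, TOMM40 and TOMM70, and below 0 between these sets. Some values are weak, such as 0.14 for TOMM7 with TOMM20 and -0.05 for TOMM20 with TOMM70. This split of signs is not seen in SK-N-AS.

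Genes with a pattern like that of TOMM5 were ranked by Pearson's r over the 28 CHP134 arrays among 13990 clusters with 1 symbol and a level above background. The 5 most alike were JAGN1, a protein of the endoplasmic reticulum (r = 0.97), RYK, a Wnt co-receptor (0.96), RRM2, the small subunit of ribonucleotide reductase (0.96), SERP1, a protein of the endoplasmic reticulum translocon (0.96), and MPLKIP, whose loss causes a form of trichothiodystrophy (0.95). Over the 12 SK-N-AS arrays their r with TOMM5 was 0.92, 0.91, 0.92, 0.87 and 0.94. JMJD6 came at rank 142 with r = 0.85, and 0.87 in SK-N-AS. The TOM gene most like TOMM5 was TOMM22 (r = 0.66, and 0.64 in SK-N-AS) and the least like was TOMM70 (-0.71, and -0.65). All arrays of a line, induced or not, entered these values, so a gene lower in the induced arrays of both lines can reach a high r in both. How r was spread over all clusters in SK-N-AS was not examined, and these values are a description only.

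Of the genes beside TOMM5 on chromosome 9, FBXO10, an F-box protein, changed by 0.21 (SE 0.22, adjusted p = 0.890) and FRMPD1, a scaffold protein, by 0.75 (SE 0.30, adjusted p = 0.319) on the mean of both hairpins. Neither was called, and both had values above 0.

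The rest of the import machinery was read from lists of partner complexes. Of 62 further genes on these lists, 58 were measured, and 0 were called in either direction with shRNA-1, with shRNA-2 or on their mean in CHP134 or in SK-N-AS, where 0%, 0.779%, 1.25% and 0% of all clusters were called. At these shares few or no calls among 58 genes are no result about the lists. Their median change on the mean of both hairpins was -0.04 against 0.00 for all clusters, with 27 of 58 above 0. Values of single list genes are from that mean in CHP134 unless SK-N-AS is named. In the outer membrane, the list of the sorting and assembly machinery, which inserts TOMM40 into the membrane, and its partner DNAJC11 had MTX3 at -0.30 and MTX1 at -0.31 (adjusted p = 0.652 for both), DNAJC11 at -0.23, and SAMM50, the core of that machinery, and MTX2 at 0.04 each. The last 3 were named after their values were seen. The channel VDAC1 was at 0.32 (SE 0.15, adjusted p = 0.436) and the cytochrome b5 isoform CYB5B at -0.23 (adjusted p = 0.652), and TOMM20L, a paralog of TOMM20, was at 0.14 (adjusted p = 0.938).

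Behind the pore, the intermembrane space chaperone TIMM9 was at 0.21 (adjusted p = 0.754) and the sulfhydryl oxidase GFER at -0.26 (adjusted p = 0.779). Of the inner membrane translocases, the carrier translocase genes TIMM22 and AGK were at -0.10 and -0.08, and the presequence translocase genes TIMM21 and TIMM23 at 0.31 and 0.12 (adjusted p between 0.849 and 0.969 for these 4). TIMM44, which anchors the import motor, had the smallest unadjusted p of the lists on that mean (-0.38, SE 0.15, adjusted p = 0.303). In SK-N-AS TIMM44 was at 0.21 (SE 0.21), and the smallest p of the lists was that of FUNDC2 (-0.47, adjusted p = 0.626). The motor's HSP70, HSPA9, was at 0.18 (adjusted p = 0.668). The peptidase genes IMMP1L and PMPCA were at -0.61 (SE 0.31, adjusted p = 0.512) and -0.41 (adjusted p = 0.737), and in SK-N-AS at 0.16 and -0.51. Of the cytosolic chaperones, HSPA1A was at -0.46 (SE 0.32, adjusted p = 0.738) and STIP1 at -0.12 (adjusted p = 0.899). Of the nuclear regulators of mitochondrial genes, NRF1 was at -0.33 (SE 0.14, adjusted p = 0.361) and the coactivator PPARGC1A at 0.46 (SE 0.25, adjusted p = 0.585).

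Promoter sequences of the TOM genes were taken from RefSeq (GRCh38.p14), which gave 250 bases before the start of 7 of the 8 genes, TOMM6 included and TOMM5 not. They were searched on both strands for the E-box CACGTG bound by MYC proteins, for 2 spellings of the core of the NRF1 site, GCATGCGC and the looser GCGCANGCG, which can overlap each other, and for CCGGAAGT, a site of ETS factors such as GABPA. Both NRF1 and GABPA are known regulators of nuclear genes for mitochondrial proteins. The letters GCATGCGC were found in 1 of 7 (TOMM7) against 2.63% of 35116 promoters and the looser spelling in 4 of 7 (TOMM7, TOMM20, TOMM34 and TOMM40) against 6.56%. The ETS letters were in 3 of 7 (TOMM6, TOMM20 and TOMM70) against 3.42%, and the E-box in 1 of 7 (TOMM20) against 6.34%. The members' promoters had a median of 64.8% G and C, against 58.0% for all promoters. Shown are the receptor genes TOMM20, TOMM70 and TOMM22, whose values stood nearest to the edge of the other arrays. Sequences run 5′ to 3′ on the strand of the gene up to the base before its start, with motif matches in capitals, and a match is a description of letters and not a site.
TOMM20, chr1:235128838-235129087, minus strand: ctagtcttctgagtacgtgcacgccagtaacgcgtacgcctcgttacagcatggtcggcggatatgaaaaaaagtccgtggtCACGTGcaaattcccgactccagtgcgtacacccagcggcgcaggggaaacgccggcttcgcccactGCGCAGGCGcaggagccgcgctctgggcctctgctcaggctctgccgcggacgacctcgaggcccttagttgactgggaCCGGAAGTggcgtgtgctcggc
TOMM70, chr3:100401090-100401339, minus strand: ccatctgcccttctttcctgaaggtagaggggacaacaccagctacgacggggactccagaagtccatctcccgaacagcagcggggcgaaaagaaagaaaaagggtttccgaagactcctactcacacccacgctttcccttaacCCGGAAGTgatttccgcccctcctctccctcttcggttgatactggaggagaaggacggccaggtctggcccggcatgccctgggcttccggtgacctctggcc
TOMM22, chr22:38681707-38681956, plus strand: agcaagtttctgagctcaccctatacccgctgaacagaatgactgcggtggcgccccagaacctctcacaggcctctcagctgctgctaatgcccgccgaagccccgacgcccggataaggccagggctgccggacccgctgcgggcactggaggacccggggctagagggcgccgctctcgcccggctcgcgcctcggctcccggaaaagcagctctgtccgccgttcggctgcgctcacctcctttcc
The stretch of TOMM20 held the E-box, the looser NRF1 spelling and the ETS letters, in that order from its 5′ end, that of TOMM70 the ETS letters alone and that of TOMM22 none of them.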

How the data were processed

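RNA (100 ng per array) was hybridised to Clariom S Human arrays. The authors deposited robust multi-array average (RMA) log2 intensities per probe set and named limma for differential expression; versions were not given in the sources used here. The 44 columns held 40 distinct arrays, since 4 control columns were repeated with a largest difference of 0, and each was counted once. Of 27189 probe sets, 5741 controls were left out and 21448 transcript clusters tested, 17709 of them with 1 gene symbol in the platform annotation. Sorted values differed more between the lines (mean SD 0.0819) than within CHP134 (0.0505) or SK-N-AS (0.0179), so no test crossed the lines.

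Changes are DOX minus vehicle in JMJD6 shRNA cells minus the same in control cells, fitted with limma 3.58.1 (R 4.3.3, lmFit and eBayes, a mean per group, two-sided), with Benjamini-Hochberg adjustment over all clusters and a threshold of 0.05. The fit of the mean, the hairpin difference and the control and uninduced comparisons used all 28 CHP134 arrays, and each hairpin's fit used the 16 arrays of its letters, so hairpin comparisons share control arrays A and B. The fit was tested on simulated data. The number of arrays limits the precision. In CHP134 same-letter arrays deviated together in 54 of 54 pairs (r from 0.14 to 0.59), so the letters were taken to pair arrays, although arrays of different letters reached r = 0.55. The main fit had no term for the letter, so its CHP134 standard errors include the spread between letters. CHP134 changes are from that fit unless another setting is named. In SK-N-AS 4 of 18 pairs exceeded 0.1.

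The TOM genes, the lists and the tests were chosen with earlier results of these data known. Named are all members, JMJD6, in each import list the genes called or else the 2 with the smallest p, the 5 genes most like TOMM5, and its neighbours. Alternatives were a replicate block, array weights, trend and robust moderation, the study's list thresholds (1.5-fold, adjusted p of 0.2, p of 0.05), all 28 arrays in 1 fit, omission of each array and, chosen after seeing the data, omission of 2 SK-N-AS control arrays and fits within letter sets. Summaries used Python 3.11.15.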

Additional observations from a re-analysis of the deposited data

Results flagged for a closer look

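TOMM20 in CHP134 control cells under DOX had 1 array far from the rest of its group. Repeat A read 9.27 and the next lowest array 9.57, a gap of 0.632 of the whole range of the 6 arrays. It was 1 of 42 combinations of TOM gene and CHP134 group examined in this way, of which chance flags about 1 in 20.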

How the results depend on the processing

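The other 6 members were not called under any alternative run in any of the 10 comparisons, and TOMM5 kept a value below 0 under each alternative in the CHP134 and SK-N-AS hairpin comparisons. Called clusters changed with the setting. With the replicate block the counts were 1326 for the mean of both hairpins, 16 for shRNA-1, 959 for shRNA-2, 70 for the hairpin difference, 169 for uninduced shRNA-1 and 0 for uninduced SK-N-AS shRNA-2 cells. Under the study's list thresholds they were 527, 5, 622, 7, 39 and 3 in that order, and 23 for the SK-N-AS response. Trend and robust moderation gave 5 for shRNA-1 and 16 for SK-N-AS. Array weights gave 267 for shRNA-2, 22 for SK-N-AS with 1 TOM gene (TOMM5, for whose fall the set was taken up) and 2 for uninduced SK-N-AS. With all 28 arrays in 1 fit, shRNA-1 had 26 and shRNA-2 302. Within letters A and B alone, shRNA-1 had 9 and shRNA-2 had 0 clusters and 0 TOM genes, as it had within C and D, where fewer arrays entered. Without the 2 SK-N-AS control arrays that stood apart, uninduced shRNA-2 cells had 1063, but these arrays were picked for likeness to those cells. Omission of single arrays gave 191 to 328 for the mean, 0 to 2 for shRNA-1, 72 to 193 for shRNA-2, 1 to 4 for the hairpin difference, 0 to 27 for SK-N-AS with 0 to 1 TOM genes (the higher values without induced array B), 0 to 217 for uninduced shRNA-1 (217 without its vehicle array B) and 0 to 7 for uninduced SK-N-AS. The cause of these differences was not tested beyond the number of arrays. In SK-N-AS, where the letters did not pair arrays, the block gave TOMM5 an adjusted p of 0.390. With 3 or 4 arrays per hairpin group, changes well above the standard errors printed above could stay uncalled, as that of JMJD6 did with shRNA-1 (-0.65, SE 0.20).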
